A study of Rattus norvegicus with 8 samples.

Results

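The nuclei described here are those of rat nodose ganglia in which transcripts of Brinp3, of Pappa2 or Galnt14, and of Cntn3 were read together. They are called triple-positive below. They were chosen by raw UMI counts: a nucleus was taken when it held at least 1 UMI (unique molecular identifier, a tag that marks 1 captured transcript) of Brinp3, at least 1 of Pappa2 and Galnt14 summed, and at least 1 of Cntn3. The rule selected 1037 of 36741 nuclei. Because these measured values selected the nuclei, the levels of the 4 genes in them are given as a description with no test. The ganglia came from experimentally naive Long Evans rats aged 8 weeks, 18 male and 18 female, with no transgene, treatment or diet named in the labels. Each pool joined the left or the right ganglia of 6 rats. There were 3 pools each of male left (ML1 to ML3), male right (MR1 to MR3), female left (FL1 to FL3) and female right ganglia (FR1 to FR3). Nuclei of all 12 pools were barcoded by combinatorial indexing and divided over 8 sublibraries, which are technical portions and not groups.

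Vagal sensory neurons have their cell bodies in the nodose ganglion and carry signals from the gut, heart, airways and other viscera to the brainstem. The adjoining jugular ganglion holds somatosensory neurons of another embryonic origin. Brinp3 encodes a neuronal protein of the BRINP family, whose members were first described as inducible by bone morphogenetic protein and retinoic acid. Pappa2 encodes a secreted metalloproteinase that cleaves insulin-like growth factor binding proteins and so releases the growth factor. Galnt14 encodes a transferase that starts mucin-type O-glycans on proteins. Cntn3 encodes a contactin, an immunoglobulin-type adhesion molecule anchored to the neuronal surface by a lipid.

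The promoters of the 4 genes are shown because these genes define the nuclei by being read in the same nucleus. Each sequence is from RefSeq, build GRCr8, and runs from 250 bases before to 50 after the annotated start, 5′ to 3′ on the gene's strand. The windows are chr13:60963877-60964176 (plus strand) for Brinp3, chr13:73681519-73681818 (minus) for Pappa2, chr6:27507628-27507927 (plus) for Galnt14 and chr4:136681862-136682161 (minus) for Cntn3. Capitals mark matches to CCAAT and GGGCGG, on either strand.
Brinp3: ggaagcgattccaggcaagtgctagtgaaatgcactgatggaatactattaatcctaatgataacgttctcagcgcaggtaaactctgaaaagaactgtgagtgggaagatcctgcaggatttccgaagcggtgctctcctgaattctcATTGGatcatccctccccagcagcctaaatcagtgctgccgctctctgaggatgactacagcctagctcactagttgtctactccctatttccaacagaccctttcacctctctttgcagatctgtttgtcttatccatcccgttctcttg
Pappa2: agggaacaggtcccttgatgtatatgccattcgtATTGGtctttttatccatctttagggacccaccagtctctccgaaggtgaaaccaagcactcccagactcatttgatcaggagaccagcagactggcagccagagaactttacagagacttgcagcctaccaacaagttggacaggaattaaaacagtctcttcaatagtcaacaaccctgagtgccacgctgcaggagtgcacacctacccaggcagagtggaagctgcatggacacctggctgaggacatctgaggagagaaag
Galnt14: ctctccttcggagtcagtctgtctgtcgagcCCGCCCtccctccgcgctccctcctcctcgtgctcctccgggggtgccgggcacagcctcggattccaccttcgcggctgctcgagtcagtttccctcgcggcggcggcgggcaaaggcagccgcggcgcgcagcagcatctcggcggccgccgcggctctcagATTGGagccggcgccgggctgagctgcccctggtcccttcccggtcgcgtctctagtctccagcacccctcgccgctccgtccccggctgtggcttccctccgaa
Cntn3: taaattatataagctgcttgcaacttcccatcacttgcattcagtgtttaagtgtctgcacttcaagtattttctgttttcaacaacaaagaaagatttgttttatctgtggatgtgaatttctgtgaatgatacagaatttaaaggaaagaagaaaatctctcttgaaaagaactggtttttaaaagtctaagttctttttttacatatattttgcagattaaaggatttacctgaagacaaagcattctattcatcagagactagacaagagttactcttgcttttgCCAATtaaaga
Each of the 4 windows held 1 CCAAT, a motif found in 37.5% of 33469 rat promoters of the same length. Only Galnt14 among them held GGGCGG, which 33.1% of promoters hold. None of the 4 held TATAAA (14.2% of promoters), CAGCTG (15.1%) or TAATTA (5.36%), and no match overlapped another. The GC content was 47.3% in Brinp3, 50% in Pappa2, 72.3% in Galnt14 and 30.7% in Cntn3, against a median of 51.7% over all promoters. These matches are descriptions of letters in the windows.

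Sequencing gave 16016210 to 19284011 UMIs in a sublibrary, and the triple-positive nuclei of a pool held 353496 to 1150910 UMIs. Pools ML1 and FL1 went against their sex labels. Kdm5d and Eif2s3y, both Y-linked, summed to 2.13 CPM (UMIs scaled to a common total per pool) in ML1 and 87.9 in FL1, against 83.4 to 90.7 in the other male-labelled pools and 1.51 to 3.12 in the other female-labelled pools. Sex is therefore given as labelled, and results are also given without these pools. Without them 792 triple-positive nuclei were left. Of the 1037 nuclei, 102 shared their well barcodes with a nucleus of another sublibrary, and 6 of these shared them with another triple-positive nucleus.

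The label of a Brinp3, Pappa2 and Galnt14 neuron type was met only in part. Most triple-positive nuclei, 913 of 1037, lay in the 23 clusters classed as neurons, and 124 lay in non-neuronal clusters. Galnt14 was detected in 1011 of them and Pappa2 in 174 (16.8%). Pappa2 alone met the Pappa2 or Galnt14 condition in 26 nuclei, Galnt14 alone in 863 and both were present in 148. Without ML1 and FL1 the share with Pappa2 was 17.8%. Outside the rule a further 405 nuclei had a Pappa2 UMI.

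The rule stood close to single UMIs. Exactly 1 UMI for each of its 3 conditions was found in 39 nuclei, and at least 2 for each in 388. Just outside it, 755 nuclei lacked only Brinp3, 1420 lacked only Cntn3 and 415 lacked only Pappa2 and Galnt14. The triple-positive nuclei had a median of 5685 UMIs, against 2960 in the neurons that were not triple-positive. The nuclei that lacked only Cntn3 had a median of 3846. Reads per nucleus therefore moved with membership.

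Across clusters, triple-positive nuclei were concentrated in a few neuron groups, named here by their leading genes. The largest number, 381 nuclei (36.7% of all), lay in a pair of clusters whose leading genes share Csmd3, Brinp3, Pappa2, Nox4 and Cntn4, the Brinp3-Pappa2 clusters. They made up 35.3% of the 1078 nuclei there (exact Clopper-Pearson 95% interval 32.5 to 38.3). Without ML1 and FL1, 38.5% of triple-positive nuclei lay there. The 2 clusters of this pair were unlike in size and depth. The larger had 1016 nuclei at a median of 2674.5 UMIs, and the smaller had 62 at a median of 10688.5. The smaller also had 3 satellite glia markers at 2-fold. A cluster led by Agtr1a, the angiotensin receptor, with Klhl1, Ntrk3 and Penk held 236 nuclei, 35.5% of its 664 (31.9 to 39.3). The shares in these 2 groups differed by less than their counting intervals. Intervals here cover counting error only.

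A cluster led by Pcdh15 and Ndst4 held 79 triple-positive nuclei (10.3% of 767), and a cluster led by Tafa1 and Mdfic2 held 83 (11.6% of 713). A cluster led by the peptide genes Calca and Tac1 held 45 (3.74% of 1203). The remaining neuron clusters held 89 among 22858 nuclei, or 0.389%. They were unevenly spread: a cluster led by Th and Nxph1 held 30 of the 89, 8.00% of its 375 nuclei, which is above the share in the Calca-Tac1 cluster. The nuclei of this Th cluster were deeper, with a median of 7534 UMIs against 2993 in the Calca-Tac1 cluster. It also had 4 satellite glia markers at 2-fold, so the 2 shares are not compared at like depth or make-up. Clusters led by Poteg and by Trpm8 held 6 each (3.00% of 200 and 3.49% of 172). A non-neuronal cluster led by Apoe and Kcnj10, genes of satellite glia, held 102 (3.89% of 2623). In that glial cluster the triple-positive nuclei had a median of 11719 UMIs against 3575 for the whole cluster. In the remaining neuron clusters the medians were 10594 and 2994. The depth of these nuclei therefore stood above that of their clusters by more than in the Brinp3-Pappa2 clusters, where the medians were 5237 and 2883.

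**Figure D1:**
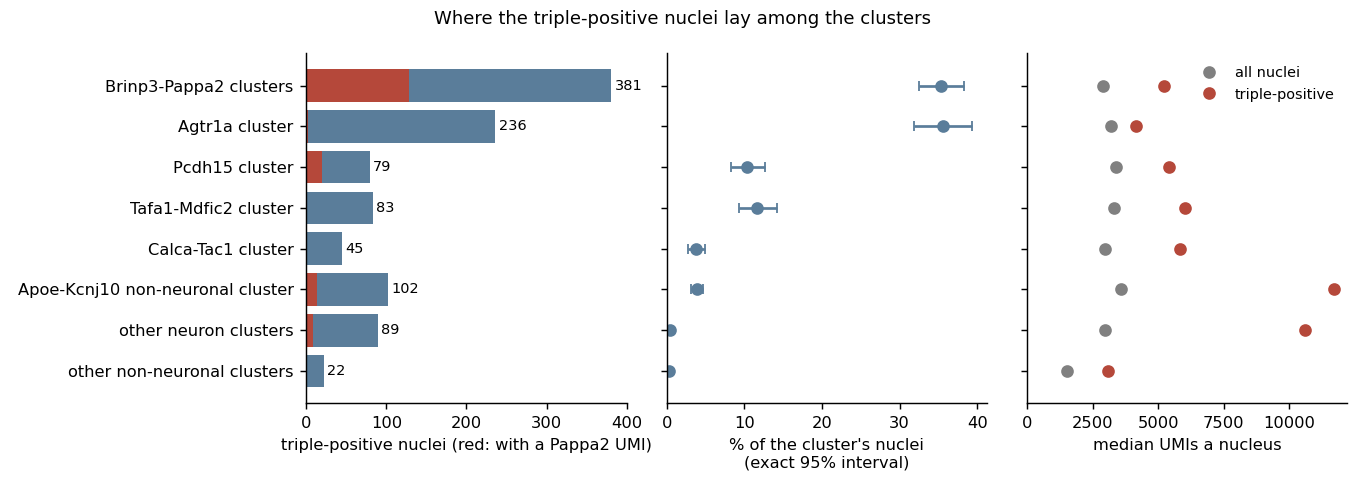
Triple-positive nuclei by cluster group: their number with the part that had a Pappa2 UMI in red (left), their share of the group's nuclei with exact 95% intervals (middle), and median UMIs per nucleus (right). The Brinp3-Pappa2 clusters held 381 nuclei, 128 of them with Pappa2, and the Agtr1a cluster held 236, 2 of them with Pappa2.

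The rule requires Brinp3 and Cntn3 in every triple-positive nucleus. It also requires Pappa2 or Galnt14, so each of these could be missing where the other was read. Galnt14 was missing in 26 triple-positive nuclei and Pappa2 in 863. The shares with Pappa2 among triple-positive nuclei are thus shaped by the rule. Of the triple-positive nuclei in the Brinp3-Pappa2 clusters, 128 (33.6%) had a Pappa2 UMI. In the Pcdh15 cluster 20 of 79 had one, in the Agtr1a cluster 2 of 236, in the Tafa1-Mdfic2 cluster 1 of 83 and in the Calca-Tac1 cluster 0 of 45. Of all 174 triple-positive nuclei with Pappa2, 73.6% were in the Brinp3-Pappa2 clusters. Across all nuclei of the Brinp3-Pappa2 clusters, whether triple-positive or not, 21.3% had a Pappa2 UMI, against 0.602% in the Agtr1a cluster. The share over all nuclei of the Pcdh15 cluster was 3.39%. In the glial Apoe-Kcnj10 cluster the share was 2.40%, at a median of 3575 UMIs, so the share in the Agtr1a cluster was not above that background. In the other non-neuronal clusters it was 0.571%, at a median of 1539 UMIs against 2883 in the Brinp3-Pappa2 clusters and 3194 in the Agtr1a cluster. Clustering used variable genes of these same nuclei, so these values describe the clusters and are no test.

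Over the 23 neuron clusters the 4 genes had different orders. Brinp3 was highest in the Brinp3-Pappa2 clusters (952 and 764 CPM), then in the Agtr1a cluster (465 CPM), and next in a cluster led by Nxph1 and Rnf220 (377 CPM). Pappa2 was highest in the same pair (109 and 210 CPM) and next at 16.8 CPM in a cluster led by Edn3. Galnt14 stood at 799 CPM in the larger Brinp3-Pappa2 cluster, at 775 CPM in a cluster led by Il31ra and at 744 CPM in the Tafa1-Mdfic2 cluster. Cntn3 was highest in the Pcdh15 cluster at 460 CPM, then in a cluster led by Trpm8 at 389 CPM. The 5 genes whose pattern was most like that of Brinp3 over the 23 clusters were Dach1 (Pearson r = 0.949 of log2(CPM + 5)), Sema3d (0.910), Tafa2 (0.902), Csmd3 (0.883) and Sel1l3 (0.858). For Pappa2 the closest was Trhr, the receptor of thyrotropin-releasing hormone, at 0.904. Clusters share libraries and differ in depth, so these correlations are descriptions.

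The rule genes varied between pools. In triple-positive nuclei Brinp3 ranged from 407 CPM (FL2) to 798 CPM (FR2) with a median of 568. In other neurons of the same pools, weighted to the same distribution of UMIs per nucleus, it ranged from 37.6 to 67.9 CPM. Cntn3 ranged from 271 to 524 CPM with a median of 339, and Galnt14 from 468 to 672 CPM with a median of 608. Pappa2 ranged from 9.88 CPM (FR2) to 151 CPM (ML3) with a median of 49.3. Galnt14 thus had a narrow range and Pappa2 a wide one, with FR2 highest for Brinp3 and Cntn3 and lowest for Pappa2. Pappa2 was read in 174 of the nuclei and Galnt14 in 1011, so the Pappa2 values rest on fewer UMIs. The part of counting error in these ranges was not tested.

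The remaining genes were compared with the same weighted neurons on the log2 scale of CPM + 5, which understates the ratio of low genes. The 2 sets were not of like make-up. The other neurons came from neuron clusters only, while the triple-positive set kept its 124 nuclei of non-neuronal clusters. Of these, 102 lay in the Apoe-Kcnj10 cluster, at a median of 11719 UMIs. The rule used these same nuclei, so there is no test. Of 4309 genes with at least 50 CPM in either set, 162 were at least 2-fold higher with the same sign in every pool, 3.76%, and 120 were as much lower, 2.78%. The median log2 ratio over these genes was 0.00. Leaving out ML1 and FL1 gave 163 and 124. With only the nuclei of the Brinp3-Pappa2 clusters, an alternative chosen after the data were seen, 233 were higher and 320 lower.

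The 15 highest genes were of mixed kinds. Csmd3, which encodes a large membrane protein with complement-like domains, ranged from 224 to 479 CPM in triple-positive nuclei (median 333) and from 28.9 to 52.0 CPM in other neurons. Its mean log2 ratio was 2.92 ± 0.496 (SD, n = 12 pools), a 7.57-fold difference. Lrp1b, a receptor of the low-density lipoprotein receptor family, ranged from 1030 to 1783 CPM against 152 to 319, with a log2 ratio of 2.66 ± 0.421. Gabrg1, a gamma subunit of the GABA-A receptor, ranged from 82.0 to 294 CPM against 14.9 to 55.8. In none of these 3 genes did the sets overlap.

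The contactin Cntn4 had a log2 ratio of 2.59 ± 0.713, and Syndig1, a protein of excitatory synapses, one of 2.51 ± 0.465. Grm8, a metabotropic glutamate receptor, had 2.39 ± 0.298 and the cadherin Cdh12 had 2.17 ± 0.375. Ntrk3, the receptor of neurotrophin-3, ranged from 320 to 835 CPM against 49.3 to 94.1. The transcription factor genes Meis1 and Dach1 had log2 ratios of 2.50 ± 0.432 and 2.49 ± 0.558. Chn2, a regulator of Rac, the guidance cue Sema3d, Lypd1 and the zinc finger genes Zmat4 and Zfp385d completed the 15, with mean log2 ratios of 2.25 to 2.52.

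The 8 lowest genes were led by Col6a5, a collagen chain. It ranged from 75.7 to 356 CPM in triple-positive nuclei (median 135) and from 792 to 1299 CPM in other neurons, 6.90-fold lower. Cysltr2, a leukotriene receptor, ranged from 0.00 to 17.1 CPM against 53.8 to 107 CPM. Dsp, which encodes desmoplakin, Gdpd4, the cation channel gene Trpc4, Slc45a3, Tafa4 and the transcription factor gene Tbx3 had mean log2 ratios of -2.60 to -2.08. Col6a5, Cysltr2, Gdpd4, Slc45a3 and Tafa4 are among the leading genes of neuron clusters that held 0 to 3 triple-positive nuclei each.

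**Figure D2:**
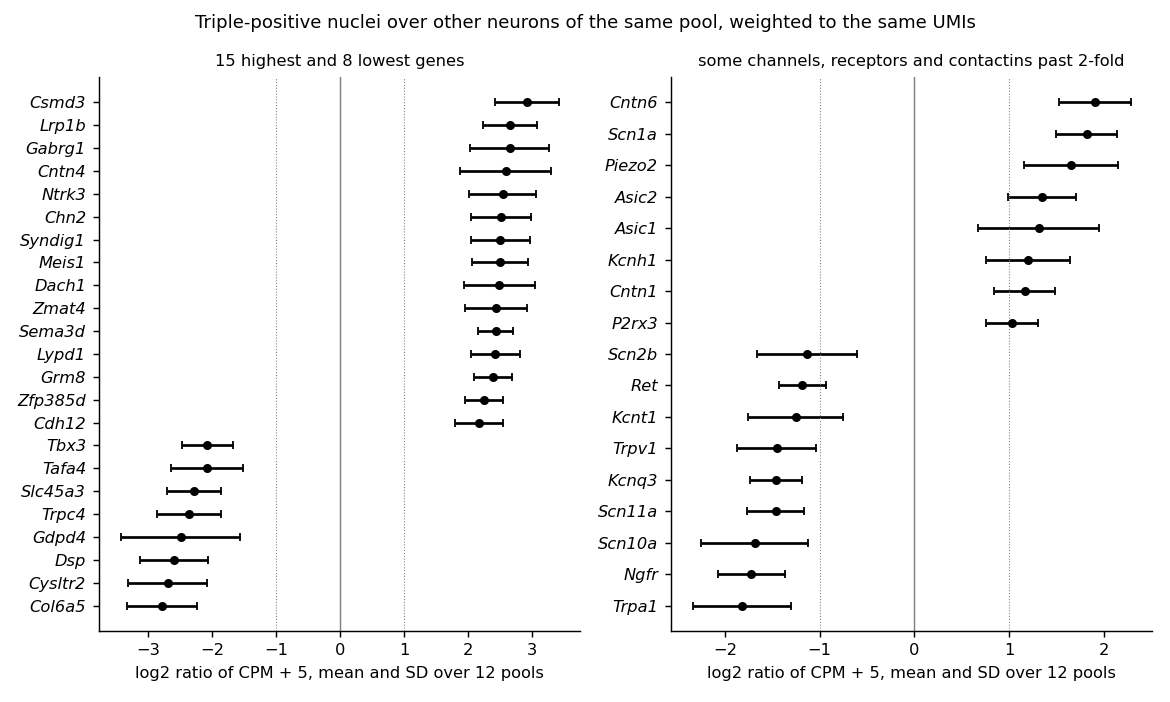
Mean log2 ratio of CPM + 5 in triple-positive nuclei over other neurons of the same pool, with the SD over 12 pools, for the 15 highest and 8 lowest genes (left) and for some of the channel, receptor and contactin genes past 2-fold (right). Dotted lines mark 2-fold. Scn1a and Piezo2 lie to the right, and Scn10a, Scn11a and Trpa1 to the left.

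Ion channel genes differed in both directions, with Piezo2 and Scn1a higher and Trpa1, Trpv1 and Scn10a lower. The counts in the gene lists stand against 3.76% of all 4309 genes past 2-fold higher and 2.78% lower. Of 11 mechanosensitive and TRP channel genes at the level, 3 were past 2-fold higher (Piezo2, Asic1 and Asic2) and 3 lower, among them Trpv1 and Trpa1, with a median log2 ratio of -0.47. Piezo2, the stretch-gated channel of touch and baroreception, ranged from 558 to 979 CPM against 154 to 358. The irritant channel Trpa1 ranged from 73.3 to 182 CPM against 332 to 516. Neither gene's sets overlapped.

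Of 12 voltage-gated sodium channel genes, Scn1a was higher and Scn10a, Scn11a and Scn2b were lower, with a median of 0.07. Scn1a, a channel of fast-spiking neurons, ranged from 312 to 506 CPM against 89.5 to 159. Scn10a, which encodes the tetrodotoxin-resistant channel of nociceptors and other C fibres, ranged from 195 to 874 CPM against 1163 to 1401. Of 20 genes of potassium and related channels, 2 were higher, among them Kcnh1, and 3 lower (Kcnq3, Kcnc4 and Kcnt1), with a median of 0.18. Kcnq3, a subunit of the M-current channel, ranged from 245 to 427 CPM against 709 to 1206.

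Of 6 neurotrophin and GDNF receptor genes, 2 were higher, among them Ntrk3, and Ngfr and Ret were lower, with a median of -0.72. Ngfr ranged from 252 to 594 CPM against 1219 to 1821. Ntrk2, the receptor of brain-derived neurotrophic factor, was at 582 ± 83.7 CPM against 1046 ± 82.1, short of 2-fold. Of 6 receptor genes of vagal sensory signals at the level, only Cysltr2 was past 2-fold, and it was lower. Glp1r, the receptor of the incretin GLP-1, was below the level at 48.7 ± 18.0 CPM. Of 12 transcription factor genes, Casz1 and Meis1 were higher and Tbx3 lower, with a median of 0.15. Of 4 secreted peptide and TAFA genes, Tafa2 was higher and Cartpt and Tafa4 were lower, with a median of -0.33. Of 24 genes that mark other vagal neuron groups, 4 were higher and 11 lower, with a median of -0.89. The 4 were Ndst4, Slit2, Ntrk3 and Klhl1.

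Apart from the rule genes themselves, few genes of their families were past 2-fold, except among the contactins. Over all 4309 genes 3.76% were past 2-fold higher and 2.78% lower. Of 3 BRINP genes only Brinp3 was past 2-fold, with Brinp1 at 99.2 ± 22.9 CPM against 80.1 ± 9.33 and Brinp2 at 79.9 ± 24.6 against 83.6 ± 16.1. Of 9 O-glycosylation genes, Galnt14 was higher and Galnt10 lower, with a median of 0.08. Galnt13 was at 644 ± 93.3 CPM against 894 ± 41.3. Of 17 contactin and partner genes, Cntn1, Cntn4 and Cntn6 were higher besides the rule gene Cntn3, and none was lower, with a median of 0.33. Of 4 genes of the insulin-like growth factor axis at the level, only Pappa2 was past 2-fold. Igf1r, the receptor, was at 447 ± 44.8 CPM against 562 ± 32.2. Igfbp5, a substrate of the Pappa2 protease, was below the level at 41.1 ± 21.8 CPM, and the inhibitor gene Stc2 had no UMI. Each of these families includes a gene used by the rule.

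Markers of other cells were read in the same nuclei. The 12 general neuron markers summed to 12925 ± 1228 CPM, against 12621 ± 523 in other neurons. P2rx3, a nodose neuron gene, ranged from 402 to 705 CPM against 224 to 310. The 6 satellite glia markers summed to 307 to 883 CPM, against 186 to 446 in other neurons. None of the 6 was at 0. By cluster their sum was 1590 CPM in the triple-positive nuclei of the Apoe-Kcnj10 cluster, 259 in those of the Brinp3-Pappa2 clusters and 60.6 in those of the Pcdh15 cluster. The 6 sympathetic and chromaffin markers summed to 25.5 ± 13.3 CPM, with 1 of them at 0. Doublets and free RNA were not tested as sources of these values.

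The triple-positive nuclei were not alike across clusters. The neurofilament gene Nefm was at 5929 CPM in those of the Brinp3-Pappa2 clusters and at 1417 CPM in those of the Agtr1a cluster. Gabrg1 was at 390 and 9.70 CPM and Csmd3 at 727 and 146 CPM in the same order. Ntrk3 and Klhl1 went the opposite way, at 478 and 13.1 CPM in the former and 1079 and 346 CPM in the latter. Glp1r was at 190 CPM in the Agtr1a cluster and 13.5 CPM in the Brinp3-Pappa2 clusters. In the Tafa1-Mdfic2 and Calca-Tac1 clusters Scn10a was at 1727 and 2130 CPM, against 164 CPM in the Brinp3-Pappa2 clusters. Prdm12, a jugular and nociceptor transcription factor, was at 94.5 and 130 CPM there, against 3.09 CPM. The low mean Scn10a of all triple-positive nuclei therefore did not hold in every cluster. These sums pool all 12 pools and the clustering used the same genes, so they carry no test.

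**Figure D3:**
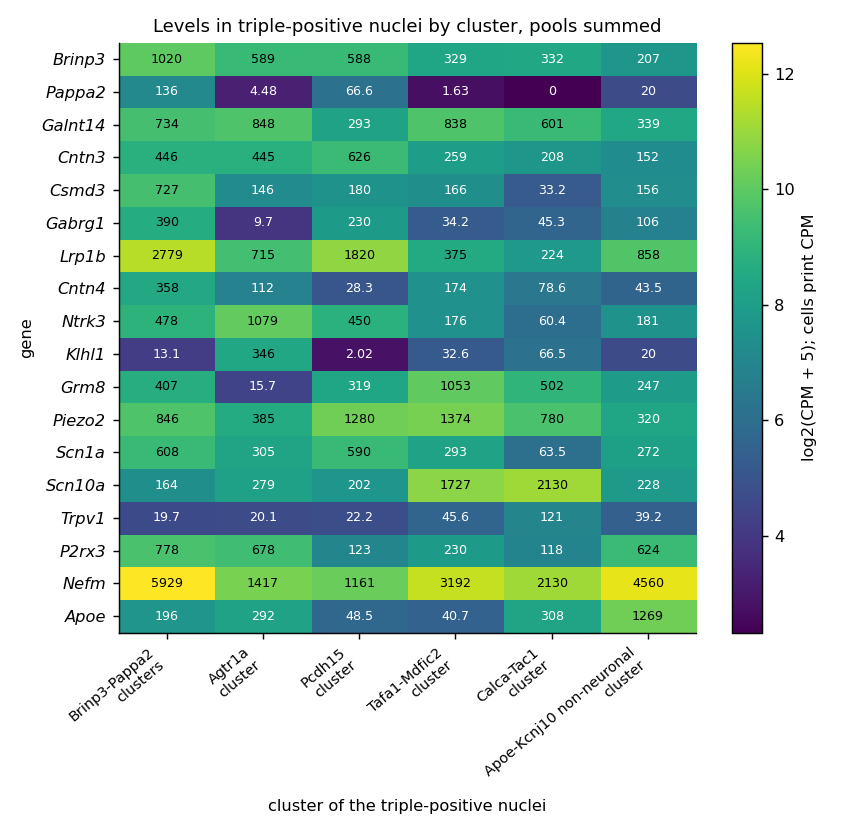
Levels of the rule genes and other named genes in triple-positive nuclei by the cluster in which they lay, pools summed; colour is log2(CPM + 5) and the printed values are CPM. Pappa2, Csmd3, Gabrg1 and Lrp1b were highest in the Brinp3-Pappa2 clusters, Ntrk3 and Klhl1 in the Agtr1a cluster, Grm8 and Piezo2 in the Tafa1-Mdfic2 cluster and Scn10a in the Calca-Tac1 cluster.

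The first comparison by condition asked whether the 2 sides held different shares of triple-positive neurons. In the left pools the share of neurons was 4.91% (ML1), 3.13% (ML2), 3.29% (ML3), 3.82% (FL1), 2.90% (FL2) and 5.07% (FL3). In the right pools it was 3.54% (MR1), 2.36% (MR2), 2.94% (MR3), 2.59% (FR1), 2.36% (FR2) and 3.40% (FR3). ML1 and FL3 stood above every right pool, and the other left pools overlapped with the right ones. The means were 3.85% ± 0.932 and 2.86% ± 0.515 (SD, n = 6 each), a difference of -0.990 percentage points that missed the threshold (two-sided exact permutation within labelled sex, p = 0.055; the smallest p possible was 0.005). Without ML1 and FL1 the difference was -0.734 points (exact permutation p = 0.18). Leaving out ML2, MR1 or FL2 instead brought the exact permutation p to 0.045, 0.045 and 0.035. The pool number as a replicate block, a pairing that no label gives, brought an exact sign-flip permutation p of 0.03125, the smallest possible there.

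The depth of the nuclei was also compared between sides, and its difference did not pass the adjusted threshold. Triple-positive nuclei had a median of 6222 UMIs in left pools and 5096 in right pools (exact permutation p = 0.025, adjusted p = 0.225 over 9 composition measures by side). With every nucleus thinned to 2000 UMIs and shallower ones left out, the share was 1.72% ± 0.395 in left pools and 0.218 points lower in right pools (exact permutation p = 0.335). At 1000 UMIs the shares were 0.507% ± 0.0844 and 0.508% ± 0.101 (exact permutation p = 0.98). Thinning to 2000 UMIs left out 304 to 1417 neurons in a pool, and at 1000 UMIs only 4.79 to 17.0 triple-positive neurons were expected in a pool. The difference between sides was thus smaller at 2000 UMIs and near 0 at 1000 UMIs. The share of neurons in the Brinp3-Pappa2 clusters, which needs no count of single UMIs, was 3.88% ± 0.408 left and 3.95% ± 0.710 right (exact permutation p = 0.715). With 18 rats of each sex and 3 pools of 6 rats on each side, left and right pools drew on the same rats, if the pools of a side shared none. No label says which left and right pools match, so these tests treated them as unpaired. The p-values measure the spread between pools.

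By labelled sex the shares were 3.36% ± 0.858 in pools labelled male and 3.35% ± 0.993 in those labelled female (n = 6 each, exact permutation p = 0.99). The ranges were 2.36 to 4.91% and 2.36 to 5.07%. With ML1 and FL1 left out they were 3.05% ± 0.446 and 3.26% ± 1.08 (n = 5 each, exact permutation p = 0.75). The direction turned under this and other settings, so none is given. For the make-up of triple-positive nuclei, the share in each of the 6 named cluster groups did not differ past the threshold by side or labelled sex (exact permutation, smallest p = 0.205). By side, 36.5% ± 6.54 of left and 39.0% ± 2.62 of right triple-positive nuclei lay in the Brinp3-Pappa2 clusters. The Tafa1-Mdfic2 cluster held 4.73% ± 3.34 of the right ones, and its share was 5.29 points higher in the left pools.

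Gene levels within triple-positive nuclei were then compared between sides, with UMIs summed per pool and edgeR's quasi-likelihood test. Of 8097 genes tested, 1 was called at a Benjamini-Hochberg adjusted p under 0.05, or 0.0124%. It was Nptx1, which encodes neuronal pentraxin-1, a secreted protein that clusters AMPA receptors at synapses. On the TMM-scaled CPM scale it was at 104 (ML1), 68.7 (ML2), 98.5 (ML3), 85.4 (FL1), 107 (FL2) and 78.7 (FL3) in left pools. In right pools it was at 45.6 (MR1), 59.8 (MR2), 47.4 (MR3), 38.2 (FR1), 27.9 (FR2) and 43.0 (FR3). Every left pool stood above every right pool. The log2 fold change, right over left, was -1.01 ± 0.154 (SE; edgeR adjusted p = 0.00741). The DESeq2 adjusted p was 0.000591. At an unadjusted p under 0.05 edgeR gave 465 genes. With ML1 and FL1 left out together the edgeR adjusted p was 0.203 at a log2 fold change of -0.95, and with either left out alone it was 0.0461 and 0.0248. A fit with the pool number as a replicate block, a pairing that no label gives, put the edgeR adjusted p at 0.0589, so Nptx1 was not called there.

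Nptx1 rested on few nuclei and UMIs, 11 to 112 UMIs in a pool. In other neurons it ranged from 10.2 to 52.0 CPM left and from 12.5 to 35.6 CPM right, with means of 29.0 and 24.1 (exact permutation p = 0.515). This comparison was chosen after Nptx1 had been called. The log2 ratio of triple-positive nuclei to other neurons, which reuses the called values and has no test, was 1.54 ± 0.692 left and 0.73 ± 0.224 right. By cluster, Nptx1 was at 272 CPM in the triple-positive nuclei of the Tafa1-Mdfic2 cluster and of the Calca-Tac1 cluster, and at 35.1 CPM in those of the Brinp3-Pappa2 clusters. In the Brinp3-Pappa2 clusters it was at 38.3 CPM over the left pools (53 UMIs) and 31.5 CPM over the right pools (38 UMIs). Left was also above right in the Tafa1-Mdfic2 cluster (299.6 and 184 CPM), the Calca-Tac1 cluster (304 and 195 CPM) and the remaining neuron clusters (122 and 48.1 CPM). Right was above left in the Pcdh15 cluster (17.5 and 52.6 CPM, left first) and the Apoe-Kcnj10 cluster (19.1 and 47.8 CPM), on 18 and 49 UMIs. These sums over pools have no test. The mean share of triple-positive nuclei in the Tafa1-Mdfic2 and Calca-Tac1 clusters was also higher in left pools, by 5.29 points and by 2.23 points, within the spread between pools (exact permutation p = 0.205 and 0.4). Whether that make-up bears on the Nptx1 difference was not tested.

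The levels of the rule genes, which chose the nuclei, are described by side with no test. On the TMM-scaled CPM scale Brinp3 ranged from 430 to 732 in left and from 523 to 818 in right pools, and Cntn3 from 298 to 382 and from 283 to 537. Galnt14 ranged from 483 to 708 and from 557 to 689, and Pappa2 from 29.9 to 158 and from 10.1 to 79.7. The sides overlapped for each of the 4. Leaving the rule genes aside, no gene of the 12 lists of channels, receptors, peptides, transcription factors and the rule genes' families was called by side. By labelled sex 0 of 8097 genes were called (0.0%), with edgeR as with DESeq2. At an unadjusted p under 0.05 there were 442 by edgeR and 253 by DESeq2. The gene with the smallest p was Abcg2, a transporter gene, at 11.6 ± 2.64 TMM-scaled CPM in pools labelled male and 26.2 ± 5.97 in those labelled female (edgeR adjusted p = 0.419). Next were Mbp, a myelin gene, at 117 ± 20.7 and 77.4 ± 18.3, and AABR07021536.1 at 147 ± 19.6 and 95.8 ± 21.5 (edgeR adjusted p = 0.654 each).

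When ML1 and FL1 were left out, 11 genes were called by labelled sex in triple-positive nuclei. They included the Y-linked genes Kdm5d and Eif2s3y, with log2 fold changes, female-labelled over male-labelled, of -5.15 and -4.71 (edgeR adjusted p = 3.08e-09 and 9.68e-07). These genes were singled out after the values were seen. Mmp14, a matrix metalloproteinase, and Nid1, a basement membrane protein, were lower in female-labelled pools by this fit, at -1.32 and -0.63 (edgeR adjusted p = 0.00548 and 0.0318). Hpse2, a heparanase-like gene, was higher at 1.38 (edgeR adjusted p = 0.00836).

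**Figure D4:**
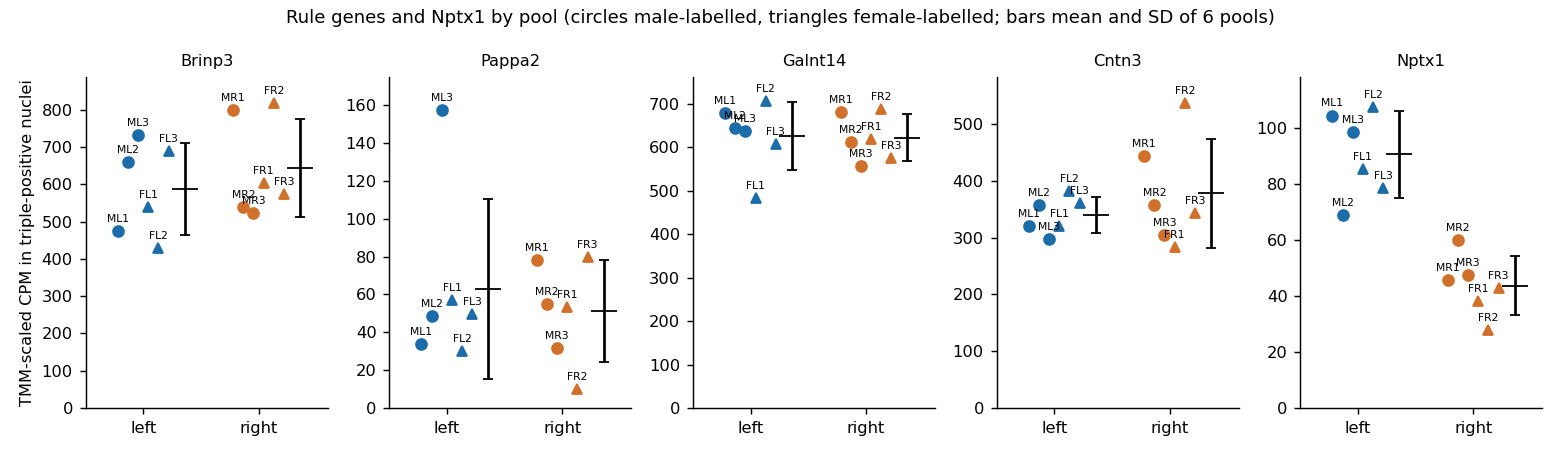
TMM-scaled CPM of the 4 rule genes and Nptx1 in triple-positive nuclei of each pool by side; circles are male-labelled and triangles female-labelled pools, bars the mean and SD of 6 pools. The sides overlap for Brinp3, Pappa2, Galnt14 and Cntn3, while Nptx1 was at 68.7 to 107 in left pools and 27.9 to 59.8 in right pools.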

How the data were processed

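Ganglia were flash-frozen, and nuclei were fixed and barcoded with Parse Evercode version 2 kits and sequenced on a NextSeq 2000, per the labels' protocols. The authors deposited raw UMI counts per nucleus and gene, with a pool name, transcript count and well code for each nucleus; the notes name the build mRatBN7.2, R 4.3.2 and Seurat 4.1.3, per the submitters' processing notes. The sources used here do not name the aligner or the barcode filter. All nuclei stand in 1 table of the 8 sublibraries. Nuclei with under 300 genes or over 5% mitochondrial UMIs were removed (1 nucleus). Clustering used scanpy 1.11.5: 3000 variable genes, 30 components, 20 neighbours and Leiden at resolution 1. Clusters were classed as non-neuronal when at least 3 markers of a non-neuronal type reached 2-fold. A listed marker of any non-neuronal type, the same or another, also had to stand among the 10 leading genes. This rule was set after the clusters were seen. No doublet caller was used. Sex, side and number come from the pool names; no label pairs left and right pools.

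UMIs of triple-positive nuclei were summed per pool and tested with edgeR 4.0.16 (additive side and labelled sex, TMM, filterByExpr) in R 4.3.3, with DESeq2 1.42.0 as an alternative; the edgeR step was tested on simulated data. Shares were compared by exact permutation of pools within the other factor (400 relabellings). Thinned shares are expected values from the hypergeometric distribution. Levels against other neurons used 10 UMI bins within each pool and a pseudocount of 5 CPM. Named genes were the 15 highest and 8 lowest ratios with the same sign in all pools, genes called by side or sex (or the 3 with the smallest p), the rule genes, and from each list up to 6 by level plus those past 2-fold. The members and lists were chosen with earlier results of these data known. Replicates are pools, and p-values measure only their spread. Some genes are not reported here.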

Additional observations from a re-analysis of the deposited data

Results flagged for a closer look

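In 168 groups of 6 pools, formed for each measure by side and by labelled sex, 1 pool stood apart from the others by Dixon's criterion in 10. Chance alone gives about 1 in 20 such groups, a rate close to the 10 of 168 seen. The groups overlap, since each pool stands in a side group and in a sex group.

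Pool FR2 stood apart in 5 of these groups, with its Ntrk3 value counted in both the right and the female-labelled group. Ntrk3 and Cntn3 are also among the leading genes of the Agtr1a cluster, so these flags are not independent. Of the triple-positive nuclei of FR2, 37.3% lay in the Agtr1a cluster, against 21.2 to 26.0% in the other female-labelled pools. In FR2 Cntn3 was at 524 CPM (other female-labelled pools 271 to 362), Dach1 at 400.0 CPM (231 to 286) and Ntrk3 at 835 CPM. For Ntrk3 the other right pools were at 344 to 518 CPM and the remaining pools labelled female at 320 to 481 CPM.

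Calca-Tac1 nuclei made up 14.6% of the triple-positive nuclei of ML1, against 0.990 to 5.77% in the other left pools, and 8.33% of those of MR3, against 0.926 to 2.05% in the other right pools. In ML3 Pappa2 was at 151 CPM (other left pools 28.3 to 55.2) and Tafa4 at 97.0 CPM (25.5 to 50.4). Pappa2 and Cntn3 chose the nuclei, so their flags are descriptions and no test. In FL2 Col6a5 was at 356 CPM, while the remaining pools labelled female ranged from 75.7 to 167.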

How the results depend on the processing

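The difference in share between sides, -0.990 points, kept its direction except at 1000 UMIs, where it was 0.000894. With the pool number as a replicate block it was -0.990 with an exact sign-flip permutation p of 0.03125. No label ties pools of 1 number to the same rats, and the deviations of same-numbered pools correlated at -0.0589 to 0.253 over 4162 genes. Leaving out 1 pool at a time gave -1.18 to -0.747. By labelled sex the difference, -0.00814, turned to 0.0188 with Brinp3 at 2 or more UMIs and to 0.210 without ML1 and FL1, and ranged from -0.351 to 0.302 with 1 pool left out. With the number within side as a replicate block, a fit added after the data were seen, the difference by labelled sex was -0.00814 (exact sign-flip permutation p = 1.0); male-labelled and female-labelled pools of 1 number correlated at -0.417 to 0.127.

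The 1 gene called by side became 2 with DESeq2, 45 with no low-count filter, 3 with neuron-cluster nuclei only and 2 with Brinp3 at 2 or more UMIs. It became 0 without ML1 and FL1, 0 with the replicate block (Nptx1 edgeR adjusted p = 0.0589) and 0 within the Brinp3-Pappa2 clusters, where 4227 genes were tested, and 1 to 2 with 1 pool left out. By labelled sex, 0 became 41 with no low-count filter, 11 without ML1 and FL1, and stayed 0 with the replicate block (399 genes at an unadjusted p under 0.05 by edgeR). It was 0 to 4 with 1 pool left out (4 without FL1 and 1 without ML1). Against other neurons, 120 lower genes became 320 in the Brinp3-Pappa2 clusters, 116 of them shared, and 116 to 126 with 1 pool left out, while 162 higher genes became 151 to 172. Of the named genes' log2 ratios under these settings, 418 moved by less than 1 SD and 19 by more, none in sign. The cause of these changes was not tested. With 353496 to 1150910 UMIs in a pool, depth limits low genes.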

Other observations

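The Brinp3-Pappa2 clusters as a whole, triple-positive or not, made up 4.32% ± 0.267 of neurons in pools labelled male and 3.51% ± 0.460 in those labelled female (n = 6 each). The two-sided exact permutation p was 0.015, and 0.135 adjusted over 9 measures by labelled sex, so the difference did not pass. With ML1 and FL1 left out the shares were 4.41% ± 0.169 and 3.43% ± 0.456 (n = 5 each), with an exact permutation p of 0.0167, the smallest that this design allows. By side the shares were 3.88% and 3.95%.

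Galnt14 and Cntn3 followed other genes over the 23 neuron clusters than Brinp3 and Pappa2 did. The gene most like Galnt14 was Prkcb, a protein kinase C gene (Pearson r = 0.889), and the gene most like Cntn3 was Lrp1b (0.877). These are descriptions over clusters that share libraries.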
